A study of Saccharomyces cerevisiae with 12 samples.

Results

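The mitochondrial protein import machinery was followed on 12 Affymetrix Yeast Genome 2.0 arrays through 33 genes chosen by name: the subunits of the TOM, SAM, TIM22 and TIM23 complexes, the small TIM chaperones, the MIA pathway, the import motor (PAM) and the matrix processing peptidase. Each of the 33 genes had 1 probe set, out of 10928 on the array and 5449 named S. cerevisiae genes. RNA came from the diploid strain BY4743, a laboratory strain with homozygous deletions of HIS3, LEU2 and URA3, grown in YPD in high aspect ratio vessels (HARVs) and kept in log phase by serial dilution. In LSMMG (low-shear modeled microgravity) the HARVs rotated in the vertical position, and control HARVs were placed horizontally. There were 3 arrays after 5 generations in LSMMG (SMG 5), 3 after 25 generations in LSMMG (SMG 25), and 6 control arrays (Ctrl), which by their titles are 3 of 5 generations (Ctrl 5) and 3 of 25 generations (Ctrl 25). The growth note of every sample names 5 generations, and a published legend divides the control arrays between the generations in other numbers than the titles. The titles were followed, so that Ctrl 5 and Ctrl 25, and each comparison that separates them, rest on the titles alone. The comparisons asked whether growth in LSMMG altered the expression of the import genes, and whether this differed between the short and the long culture.

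Most mitochondrial proteins are encoded in the nucleus, made in the cytosol and imported. Precursors enter through the TOM complex of the outer membrane, where receptors pass them to the Tom40 pore. From there SAM inserts outer membrane barrels, Mia40 and Erv1 trap cysteine-rich proteins in the intermembrane space, TIM22 inserts carriers into the inner membrane, and TIM23 with its motor draws presequence proteins into the matrix, where the processing peptidase removes the presequence.

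The values given are linear ratios, scaled so that each array has a median of 1 and each probe set a typical level close to 1. They show how a gene varied between arrays and not how strongly it was expressed, so that no gene is ranked against another by level. Over the import genes the ratios ran from 0.561 to 2.461. A gene was called changed at an adjusted p under 0.05 in limma, fitted to log2 ratios of 8968 probe sets, with no minimum fold change. The replicates are described as replicate RNA extractions, and no label says that they came from separate cultures, so p-values measure only the spread between these samples. The number of arrays limits the precision.

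Ctrl 5 replicates 1 and 2 stood apart from the other control arrays. The median log2 ratio of the 33 import genes was 0.03 and -0.04 on these arrays, between 0.18 and 0.43 on the other 4 control arrays, and between -0.19 and -0.02 on the 6 LSMMG arrays. In 18 of the 33 genes they were the 2 lowest control arrays. Leaving them out by itself tends to widen a fall in such a gene. Values and adjusted p without them are therefore no separate support for a fall. The study left out 1 control array as aberrant and the sources do not say which, so all 6 were used, and values without these 2 arrays are given for TIM8, SAM37, SAM50, ERV1, MAS1, 6 genes of the presequence pathway and each further list. Of 7 control transcripts with probe sets at the 3′ and 5′ ends of the mRNA, ACT1 had a 3′ to 5′ difference that was above all Ctrl arrays (-0.239 to 0.096, log2) on all SMG 25 arrays (0.116 to 0.264), TDH1 one that was below them (-0.019 to 0.119) on all SMG 5 arrays (-0.082 to -0.030), and the others overlapped. SMG 25 and SMG 5 also differed from each other. The difference was higher on every SMG 25 array than on every SMG 5 array in ACT1, RIP1, SPT15, WBP1, EAF5 and SRB4. For RIP1 it was 0.010 to 0.195 in SMG 25 and -0.533 to -0.297 in SMG 5. In TDH1 the LSMMG groups overlapped. Set against controls of the same generation, the difference of RIP1 was higher on all SMG 25 arrays than on all Ctrl 25 arrays (-0.477 to -0.044). That of SPT15 was higher on all SMG 5 arrays (-0.290 to -0.093) than on all Ctrl 5 arrays (-0.431 to -0.318). The difference of SPT15 was also higher on all Ctrl 25 arrays (0.125 to 0.282) than on all Ctrl 5 arrays. The part of RNA quality in the results, including those of SMG 25 against SMG 5, was not tested.

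More import genes fell than rose in LSMMG. After 5 generations, 15 of the 33 genes fell against Ctrl, 4 rose and 14 were not called. After 25 generations, 17 fell, 4 rose and 12 were not called. The genes that rose were TOM22, TOM40, MDM10 and MAS2 at both times, and 14 genes fell at both times. The comparisons share their control arrays, so that the second does not stand free of the first. The share of all named genes that fell or rose at both times was not counted.

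These counts have to be read against arrays on which most genes were called. In SMG 5 against Ctrl, 61.0% of the 5498 probe sets of named genes passed, so that the 57.6% of import genes called was close to the background. The directions were divided differently. Genes that fell made up 45.5% of the import genes and 26.8% of named probe sets, and genes that rose made up 12.1% and 34.2%. In SMG 25 against Ctrl, where 58.4% of named probe sets passed, 51.5% of the import genes fell against 25.4% of named probe sets, and 12.1% rose against 33.0%. The median log2 fold change of the import genes was -0.36 at 5 generations and -0.48 at 25 generations, beside 0.13 and 0.15 over all named genes. Against control arrays of the same generation, as titled, these medians were -0.18 and -0.47, beside 0.07 and 0.20.

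**Figure D1:**
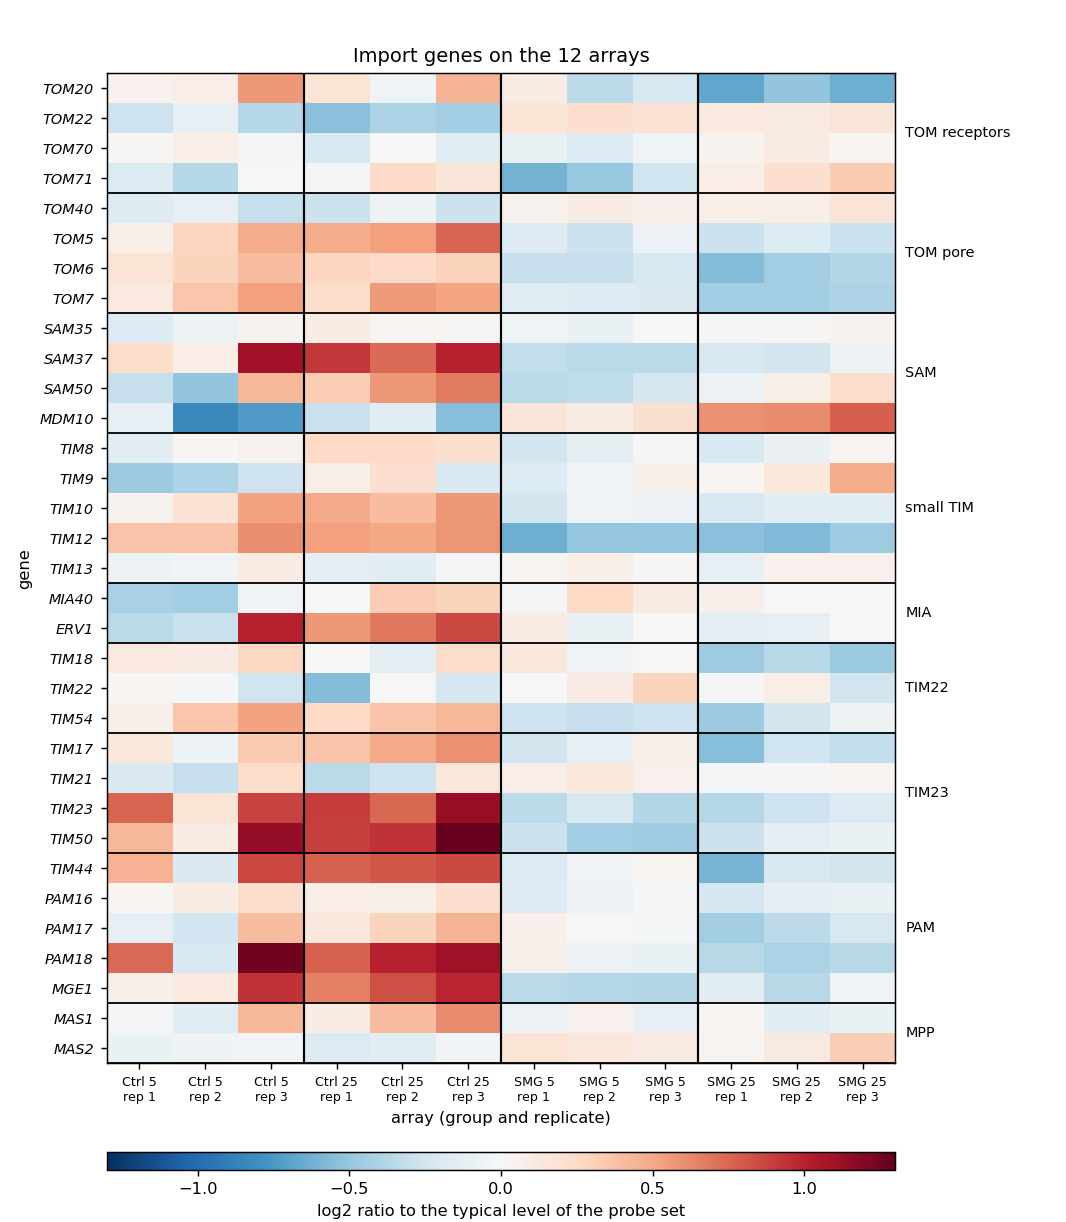
Log2 ratio of each of the 33 import genes (rows, ordered by complex) on the 12 arrays (columns, by group and replicate), with red above and blue below the typical level of the probe set. TIM23, TIM50, TIM44, PAM18, MGE1 and SAM37 are red on most control arrays and blue on most LSMMG arrays, and TOM22, TOM40 and MDM10 show the opposite. In TIM50, TIM44, PAM18, MGE1 and SAM37, Ctrl 5 replicates 1 and 2 are paler than the other control arrays.

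The receptors of the TOM complex did not move together. TOM22 (YNL131W), the central receptor that also anchors Tom20 and the pore, stood at 1.133, 1.167 and 1.139 in SMG 5 and at 1.093, 1.086 and 1.115 in SMG 25. Over the 6 Ctrl arrays, given here and for the genes that follow as the lowest, the median and the highest ratio, it stood at 0.688, 0.760 and 0.927. Every LSMMG array was above every control array, and TOM22 rose by 0.56 ± 0.09 (log2 fold change ± SE, adjusted p = 0.00043) at 5 generations and by 0.49 ± 0.09 (adjusted p = 0.00099) at 25.

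TOM20 (YGR082W), the receptor for presequences, gave 1.067, 0.788 and 0.866 in SMG 5 and 0.624, 0.702 and 0.644 in SMG 25, against 0.961, 1.10 and 1.475 (lowest, median, highest) in Ctrl. At 5 generations 1 array lay within the control range, whereas at 25 generations all 3 were below it. TOM20 fell at 25 generations (log2 fold change -0.82 ± 0.14, adjusted p = 0.00071), to 0.567 times the Ctrl level. At 5 generations it had a log2 fold change of -0.36 (adjusted p = 0.061), which passed without SMG 5 replicate 1 (-0.49, adjusted p = 0.034) or without Ctrl 25 replicate 2 (-0.42, adjusted p = 0.035).

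TOM70 (YNL121C), the receptor for carriers and other precursors with internal signals, and its paralog TOM71 (YHR117W) were the least altered of the receptors at 25 generations. TOM70 gave 0.942, 0.884 and 0.964 in SMG 5 and 1.032, 1.073 and 1.020 in SMG 25, overlapping 0.869, 0.996 and 1.063 in Ctrl (log2 fold changes -0.06 and 0.10, adjusted p = 0.57 and 0.35). TOM71 gave 0.654, 0.713 and 0.837 in SMG 5 and 1.064, 1.164 and 1.263 in SMG 25, against 0.773, 0.997 and 1.192 in Ctrl. The SMG 5 arrays overlapped only the lowest control array and TOM71 fell there (log2 fold change -0.43 ± 0.14, adjusted p = 0.024), a call that was lost without SMG 5 replicate 1 (adjusted p = 0.12) or 2 (0.077). At 25 generations its log2 fold change was 0.24 (adjusted p = 0.19).

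At the pore, the channel gene and the genes of its small subunits moved in opposite directions. TOM40 (YMR203W), the barrel through which nearly all precursors pass, stood at 1.037, 1.070 and 1.044 in SMG 5 and at 1.052, 1.061 and 1.125 in SMG 25, against 0.814, 0.858 and 0.954 in Ctrl. No LSMMG array overlapped a control array, and TOM40 rose by 0.27 ± 0.08 (adjusted p = 0.012) and 0.31 ± 0.08 (adjusted p = 0.0059). Without SMG 5 replicate 2 the rise at 5 generations was 0.26 with adjusted p = 0.050. TOM40 was given in full after its values were seen.

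The genes of the 3 small pore subunits all fell at both times. TOM6 (YOR045W), which stabilizes the complex, gave 0.813, 0.812 and 0.869 in SMG 5 and 0.675, 0.731 and 0.767 in SMG 25, against 1.135, 1.22 and 1.322 in Ctrl. Its control arrays were among the tightest of the import genes and far above all LSMMG arrays, and it fell by 0.55 ± 0.07 (adjusted p = 0.00011) and by 0.75 ± 0.07 (adjusted p = 1.2e-05) on the log2 scale.

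TOM7 (YNL070W), which acts against Tom6 in the assembly of the complex, gave 0.910, 0.893 and 0.880 in SMG 5 and 0.737, 0.733 and 0.758 in SMG 25, against 1.091, 1.36 and 1.464 in Ctrl. The groups did not overlap, and TOM7 fell by 0.55 ± 0.10 (adjusted p = 0.0010) and by 0.81 ± 0.10 (adjusted p = 6.7e-05). TOM5 (YPR133W-A), which passes precursors from the receptors to the pore, gave 0.889, 0.826 and 0.951 in SMG 5 and 0.822, 0.887 and 0.823 in SMG 25, all below the controls at 1.052, 1.40 and 1.687. It fell by 0.61 ± 0.13 (adjusted p = 0.0023) and by 0.68 ± 0.13 (adjusted p = 0.0011).

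**Figure D2:**
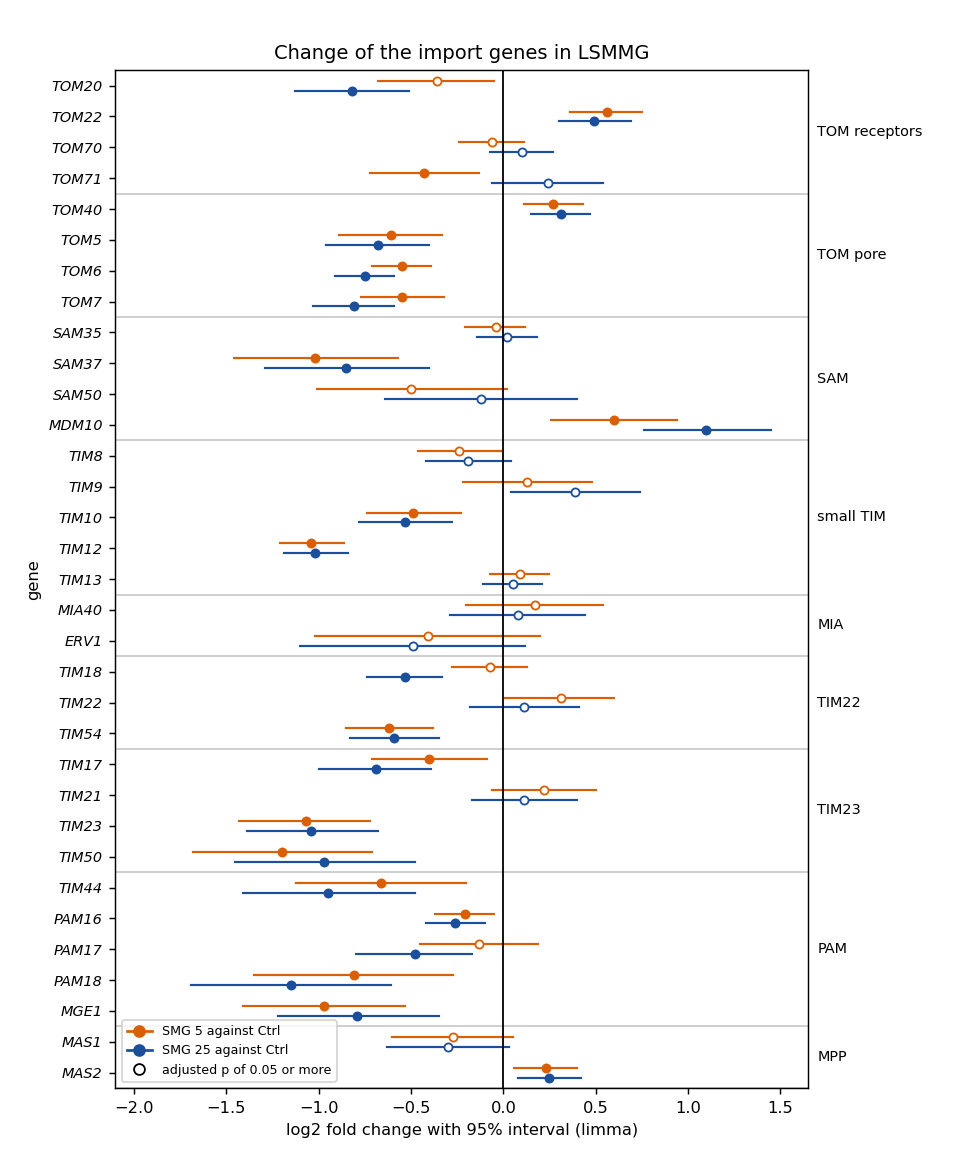
Log2 fold change against Ctrl (x axis) of each import gene in SMG 5 (orange) and SMG 25 (blue), with 95% intervals from limma and open points where the adjusted p was 0.05 or more, ordered by complex. TOM22, TOM40, MDM10 and MAS2 lie to the right of 0 at both times, while TIM12, TIM23 and TIM50 lie near a log2 fold change of -1 at both times.

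The SAM complex inserts barrel proteins such as Tom40 into the outer membrane, and its 4 genes went different ways. MDM10 (YAL010C), a barrel that takes part in the late assembly of TOM and also belongs to ERMES, the tether between mitochondria and the endoplasmic reticulum, gave 1.118, 1.070 and 1.156 in SMG 5 and 1.505, 1.530 and 1.710 in SMG 25. Its lowest, median and highest Ctrl ratios were 0.561, 0.751 and 0.926. Both LSMMG groups were above all control arrays and SMG 25 was above SMG 5 on every array. MDM10 rose by 0.60 ± 0.16 (adjusted p = 0.0091) and by 1.10 ± 0.16 (adjusted p = 0.00018), the second of these being 2.15 times the Ctrl level.

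SAM37 (YMR060C), a peripheral subunit on the cytosolic face, fell. It gave 0.800, 0.787 and 0.785 in SMG 5 and 0.864, 0.850 and 0.956 in SMG 25, against 1.059, 1.78 and 2.132 in Ctrl, where its 2 lowest values, 1.178 and 1.059, were those of Ctrl 5 replicates 1 and 2. No LSMMG array reached the control range. The log2 fold changes were -1.02 ± 0.20 (adjusted p = 0.0018) and -0.85 ± 0.20 (adjusted p = 0.0057), and without these 2 control arrays -1.28 and -1.11.

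SAM50 (YNL026W), the barrel at the core of the complex, depended on the same arrays. It gave 0.784, 0.796 and 0.859 in SMG 5 and 0.950, 1.055 and 1.174 in SMG 25, while Ctrl 5 replicates 1 and 2 gave 0.815 and 0.703 and the other control arrays lay between 1.254 and 1.592. With all controls its log2 fold changes were -0.50 (adjusted p = 0.12) and -0.12 (adjusted p = 0.73). Without Ctrl 5 replicate 2 alone the value at 5 generations was -0.64 (adjusted p = 0.013), and without both arrays the values were -0.80 (adjusted p = 5.1e-05) and -0.42 (adjusted p = 0.0049). SAM35 (YHR083W), which recognizes the sorting signal of barrels, had log2 fold changes of -0.04 and 0.02 and was not called.

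The small TIM proteins escort hydrophobic precursors across the intermembrane space as hexamers of Tim9 with Tim10 and of Tim8 with Tim13. TIM12 (YBR091C), the relative of Tim10 that sits on the TIM22 complex, gave 0.643, 0.708 and 0.708 in SMG 5 and 0.687, 0.671 and 0.727 in SMG 25, against 1.290, 1.43 and 1.524 in Ctrl. The gap between LSMMG and control arrays was wider than the spread within any group. TIM12 fell by 1.04 ± 0.08 (adjusted p = 2.6e-06) and by 1.02 ± 0.08 (adjusted p = 2.9e-06), to 0.487 and 0.494 times the Ctrl level.

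TIM10 (YHR005C-A) also fell. It gave 0.850, 0.967 and 0.951 in SMG 5 and 0.874, 0.904 and 0.904 in SMG 25, all below the controls at 1.030, 1.36 and 1.483, with log2 fold changes of -0.49 ± 0.12 (adjusted p = 0.0052) and -0.53 ± 0.12 (adjusted p = 0.0032). Its hexamer partner TIM9 (YEL020W-A) gave 0.882, 0.975 and 1.057 in SMG 5 and 1.019, 1.098 and 1.401 in SMG 25, within or above the controls at 0.723, 0.848 and 1.167, and was not called (log2 fold changes 0.13 and 0.39, adjusted p = 0.56 and 0.071). Without Ctrl 25 replicate 2 the value of TIM9 at 25 generations was 0.47 (adjusted p = 0.022).

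No gene of the other hexamer was called against all controls. TIM13 (YGR181W) changed by 0.09 and 0.05 on the log2 scale (adjusted p = 0.37 and 0.63). TIM8 (YJR135W-A) had values of -0.24 and -0.19 (adjusted p = 0.093 and 0.17), and its value at 5 generations passed without Ctrl 5 replicate 1 (-0.29, adjusted p = 0.030). Both values of TIM8 passed when Ctrl 5 replicates 1 and 2 were left out, at -0.32 (adjusted p = 0.011) and -0.28 (adjusted p = 0.024).

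The small TIM proteins are themselves imported by the MIA pathway, whose genes gave no call against all controls. MIA40 (YKL195W), the oxidoreductase, gave 0.985, 1.196 and 1.080 in SMG 5 and 1.044, 1.007 and 0.999 in SMG 25, within the control range (0.734, 0.982 and 1.254) (log2 fold changes 0.17 and 0.08, adjusted p = 0.48 and 0.76). ERV1 (YGR029W), the sulfhydryl oxidase that recharges Mia40, gave 1.067, 0.935 and 1.007 in SMG 5 and 0.916, 0.932 and 0.996 in SMG 25. Its control arrays fell into separate levels, 0.786 and 0.817 on Ctrl 5 replicates 1 and 2 and 1.474 to 2.004 on the other 4.

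LSMMG arrays thus lay between these levels, and the outcome for ERV1 rested on the control arrays used. With all 6 its log2 fold changes were -0.41 (adjusted p = 0.28) and -0.49 (adjusted p = 0.19). Without Ctrl 5 replicate 1 the value at 25 generations was -0.64 (adjusted p = 0.049), and without both arrays the values were -0.77 (adjusted p = 8.7e-05) and -0.85 (adjusted p = 4.3e-05).

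In the TIM22 complex, the channel gene was not called, TIM54 fell at both times and TIM18 fell only at 25 generations. TIM54 (YJL054W), the subunit exposed to the intermembrane space, gave 0.828, 0.815 and 0.829 in SMG 5 and 0.723, 0.850 and 0.958 in SMG 25, all below the controls at 1.050, 1.29 and 1.437. It fell by 0.62 ± 0.11 (adjusted p = 0.00081) and by 0.59 ± 0.11 (adjusted p = 0.0011). TIM22 (YDL217C), the channel itself, gave 1.007, 1.076 and 1.226 in SMG 5 and 0.991, 1.056 and 0.847 in SMG 25, overlapping the controls at 0.675, 0.923 and 1.020 (log2 fold changes 0.31 and 0.11, adjusted p = 0.094 and 0.56).

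TIM18 (YOR297C), a membrane subunit related to a subunit of succinate dehydrogenase, was called only at 25 generations. It gave 1.099, 0.970 and 0.999 in SMG 5, inside the control range (0.918, 1.09 and 1.203), and 0.728, 0.778 and 0.718 in SMG 25, below it. TIM18 changed by -0.07 (adjusted p = 0.60) and -0.53 ± 0.09 (adjusted p = 0.00079). The difference between the times themselves, -0.46, had an adjusted p of 0.062.

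The largest fall of an import gene at each time was in the presequence pathway of the inner membrane, in TIM50 at 5 generations and in PAM18 at 25. TIM23 (YNR017W), a subunit of the channel, gave 0.791, 0.867 and 0.769 in SMG 5 and 0.775, 0.832 and 0.882 in SMG 25, against 1.134, 1.77 and 2.192 in Ctrl. All LSMMG arrays were below all control arrays, the lowest of which was Ctrl 5 replicate 2. TIM23 fell by 1.07 ± 0.16 (adjusted p = 0.00026) and by 1.04 ± 0.16 (adjusted p = 0.00034), to 0.475 and 0.487 times the Ctrl level. Its log2 fold changes were -1.22 and -1.19 without Ctrl 5 replicates 1 and 2.

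TIM50 (YPL063W), the receptor that takes over precursors as they leave TOM, gave 0.823, 0.736 and 0.727 in SMG 5 and 0.824, 0.915 and 0.943 in SMG 25, against 1.073, 1.89 and 2.461 in Ctrl. Again the groups did not overlap, and the lowest control arrays were Ctrl 5 replicates 2 and 1. TIM50 fell by 1.20 ± 0.22 (adjusted p = 0.0010) at 5 generations and by 0.97 ± 0.22 (adjusted p = 0.0041) at 25. Without those 2 arrays its log2 fold changes were -1.46 and -1.23.

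TIM17 (YJL143W), the second channel subunit, gave 0.848, 0.932 and 1.052 in SMG 5 and 0.679, 0.834 and 0.801 in SMG 25, against 0.958, 1.28 and 1.508 in Ctrl. The SMG 25 arrays were all below the controls (log2 fold change -0.69 ± 0.14, adjusted p = 0.0019), and the SMG 5 arrays overlapped them (-0.40 ± 0.14, adjusted p = 0.038). Leaving out Ctrl 5 replicate 3, any Ctrl 25 array, SMG 5 replicate 1 or 2, or SMG 25 replicate 3 moved the adjusted p at 5 generations to between 0.050 and 0.16. TIM21 (YGR033C), which links TIM23 to TOM and to the respiratory chain, was not called (log2 fold changes 0.22 and 0.11).

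The 5 motor genes of this set, TIM44, PAM16, PAM17, PAM18 and MGE1, all had negative log2 fold changes against Ctrl. Of these, 4 were called at 5 generations and all 5 at 25 generations, where 26.8% and 25.4% of named probe sets were lower. Against Ctrl 5 alone 1 of the 5, MGE1, was lower in SMG 5, and PAM17 had a log2 fold change of 0. Against Ctrl 25 alone all 5 were lower in SMG 25. In these comparisons 24.3% and 25.8% of named probe sets were lower. The gene of the motor Hsp70, SSC1, was not called, and ZIM17 rose, as given with the further lists below. PAM18 (YLR008C), the J protein that stimulates the motor Hsp70, gave 1.044, 0.946 and 0.943 in SMG 5 and 0.778, 0.754 and 0.781 in SMG 25. Its control arrays spread from 0.872 on Ctrl 5 replicate 2 to 2.392 on Ctrl 5 replicate 3, with a median of 1.86, so that SMG 5 overlapped 1 control array and SMG 25 none. PAM18 fell by 0.81 ± 0.25 (adjusted p = 0.020) and by 1.15 ± 0.25 (adjusted p = 0.0027). The call at 5 generations was lost without SMG 5 replicate 2 (adjusted p = 0.063) or 3 (0.066). With Ctrl 5 replicates 1 and 2 left out, the log2 fold changes of PAM18 were -1.07 and -1.41.

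MGE1 (YOR232W), the nucleotide exchange factor of the motor Hsp70, gave 0.787, 0.772 and 0.766 in SMG 5 and 0.912, 0.780 and 0.959 in SMG 25, against 1.049, 1.68 and 1.985 in Ctrl. All LSMMG arrays were below all controls, and the 2 lowest controls, 1.049 and 1.093, were Ctrl 5 replicates 1 and 2. MGE1 fell by 0.97 ± 0.20 (adjusted p = 0.0022) and by 0.79 ± 0.20 (adjusted p = 0.0081), and without these arrays the log2 fold changes were -1.22 and -1.04.

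TIM44 (YIL022W), which tethers the motor to the channel, gave 0.881, 0.969 and 1.024 in SMG 5 and 0.657, 0.863 and 0.849 in SMG 25, against 0.877, 1.72 and 1.828 in Ctrl. Ctrl 5 replicate 2 alone lay at the LSMMG level, and the next control array was at 1.367. TIM44 fell by 0.66 ± 0.21 (adjusted p = 0.026) and by 0.95 ± 0.21 (adjusted p = 0.0036). At 5 generations the adjusted p was between 0.050 and 0.099 when Ctrl 5 replicate 3 or any SMG 5 array was left out. The log2 fold changes without Ctrl 5 replicates 1 and 2 were -0.89 and -1.18.

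PAM16 (YJL104W), the partner that holds Pam18 in check, changed least among the called motor genes, with log2 fold changes of -0.21 ± 0.07 (adjusted p = 0.039) and -0.26 ± 0.07 (adjusted p = 0.013). Leaving out Ctrl 5 replicate 3, Ctrl 25 replicate 3, any SMG 5 array or SMG 25 replicate 2 moved its adjusted p at 5 generations to between 0.055 and 0.17, and leaving out SMG 25 replicate 1 gave 0.072 at 25 generations. PAM17 (YKR065C), which helps to organize the motor at the channel, was not called at 5 generations (-0.13, adjusted p = 0.52) and fell at 25 (-0.48 ± 0.15, adjusted p = 0.019), a call lost without SMG 25 replicate 1 (adjusted p = 0.087) or 2 (0.061). PAM17 passed at both times without Ctrl 5 replicates 1 and 2, at -0.30 (adjusted p = 0.019) and -0.65 (adjusted p = 0.00012).

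The genes of the processing peptidase were divided. MAS2 (YHR024C), the subunit that binds presequences, gave 1.133, 1.098 and 1.075 in SMG 5 and 1.022, 1.086 and 1.245 in SMG 25, above the narrow range of the controls at 0.883, 0.948 and 0.977, and rose by 0.23 ± 0.08 (adjusted p = 0.030) and by 0.25 ± 0.08 (adjusted p = 0.023). The call at 5 generations was lost without Ctrl 25 replicate 1 or 2 or any SMG 5 array (adjusted p between 0.051 and 0.11), and the call at 25 generations without SMG 25 replicate 2 (adjusted p = 0.052) or 3 (0.14).

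MAS1 (YLR163C), the catalytic subunit, gave 0.947, 1.037 and 0.931 in SMG 5 and 1.015, 0.910 and 0.939 in SMG 25, against 0.907, 1.20 and 1.526 in Ctrl, and was not called against all controls (log2 fold changes -0.27 and -0.30, adjusted p = 0.18 and 0.14). The LSMMG arrays lay at the lower end of the controls. Without Ctrl 5 replicate 2 its values were -0.35 (adjusted p = 0.049) and -0.37 (adjusted p = 0.037), and without Ctrl 5 replicates 1 and 2 they were -0.43 (adjusted p = 0.0071) and -0.45 (adjusted p = 0.0052).

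**Figure D3:**
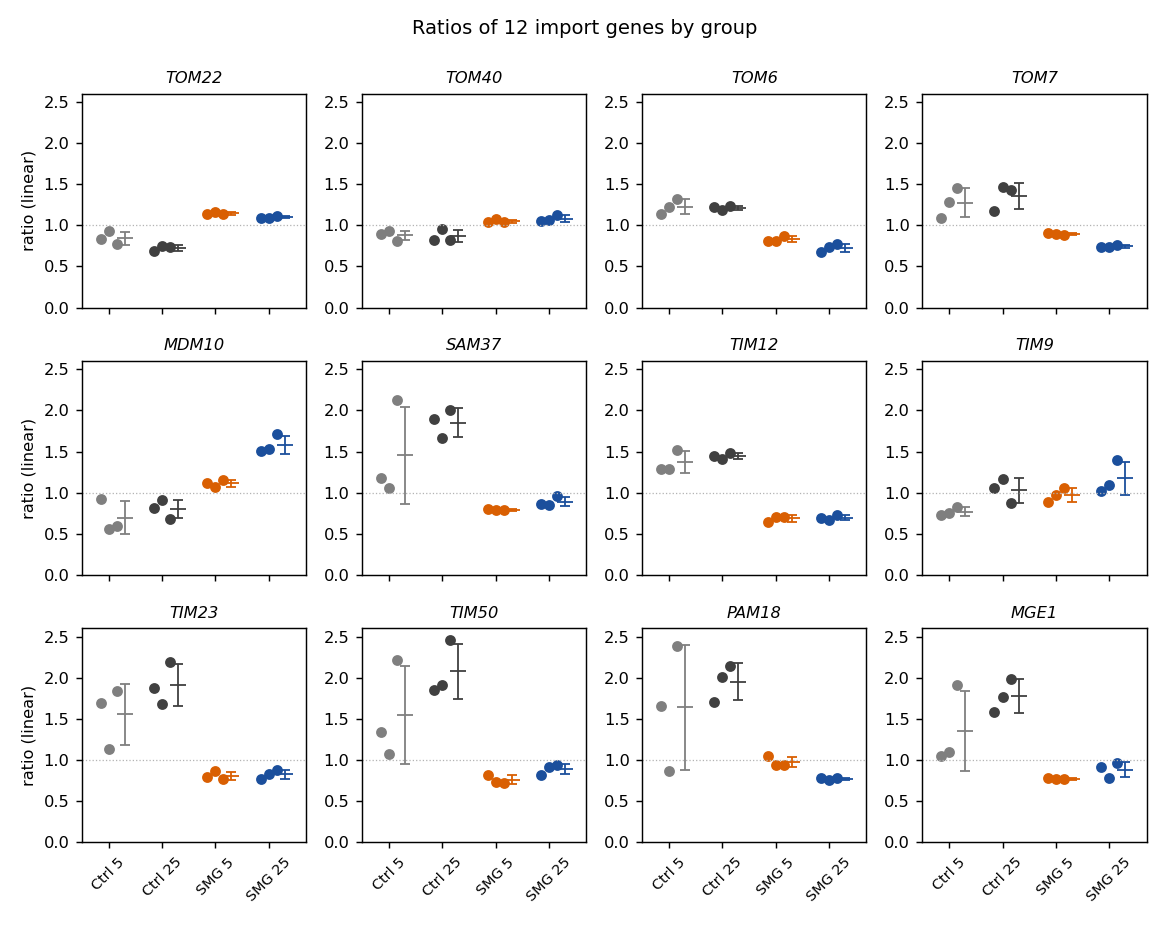
Linear ratio (y axis, dotted line at 1) of 12 import genes on each array of the 4 groups, with the mean and SD of the 3 arrays beside the points. TOM22, TOM40 and MDM10 are higher in both LSMMG groups than in both control groups, and TIM9 overlaps. PAM18 is lower in SMG 25, while its SMG 5 arrays overlap Ctrl 5, where 1 array is at 0.872. The other genes shown are lower in both LSMMG groups. Ctrl 5 is spread widely for SAM37, TIM50, PAM18 and MGE1.

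Within a single generation, the SD over 3 arrays was larger in Ctrl 5 than in SMG 5 for 28 of the 33 import genes (81.6% of named probe sets) and larger in Ctrl 25 than in SMG 25 for 26 (65.0% of named probe sets). The median SD of the ratio over the import genes was 0.175 in Ctrl 5 and 0.0475 in SMG 5, and 0.129 in Ctrl 25 and 0.0535 in SMG 25. Among the exceptions were TIM44 (0.0571 in Ctrl 25 and 0.115 in SMG 25), TOM6 (0.0213 and 0.0464) and TIM8 (0.0223 and 0.0781). All SMG 5 arrays were below all control arrays in 11 import genes and above them in 4, where 25.9% and 30.6% of named probe sets were so placed. All SMG 25 arrays were below in 16 and above in 4, where 24.3% and 30.5% of named probe sets were so placed.

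Without Ctrl 5 replicates 1 and 2, all 19 calls at 5 generations and all 21 at 25 generations were kept. There were then 26 calls at 5 generations (5 higher and 21 lower, where 76.1% of all named genes passed) and 25 at 25 generations (4 higher and 21 lower, where 74.8% passed). The genes added at 5 generations were TOM20, SAM50, TIM8, ERV1, PAM17 and MAS1, which were lower, and TIM22, which was higher. At 25 generations SAM50, TIM8, ERV1 and MAS1 were added, all lower. In 18 of the 33 genes the arrays left out were the 2 lowest controls, which tends to widen falls. The kept and the added falls are therefore no separate support.

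Between the short and the long culture in LSMMG no import gene passed the test. In SMG 25 against SMG 5, 0 of the 33 import genes were called by limma or by the methods' test. In limma 2.69% of named probe sets were called. An unadjusted p under 0.05 in limma was found for 6 of the 33 import genes and for 923 of the 5449 named genes. The methods' test gave 12 import genes at that level. The largest differences were in TOM71 (0.67, adjusted p = 0.060), MDM10 (0.50, adjusted p = 0.25), TOM20 (-0.46, adjusted p = 0.25) and TIM18 (-0.46, adjusted p = 0.062). TOM71 was among the genes called in some other settings, for example without Ctrl 25 replicate 2, when TOM71 and TIM18 passed, and without Ctrl 5 replicate 2, when TOM71 passed.

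Between the control groups, 0 import genes were called in Ctrl 25 against Ctrl 5 by limma or by the methods' test. In limma 0.200% of named probe sets were called. An unadjusted p under 0.05 in limma was found for 10 of the 33 import genes and for 1788 of the 5449 named genes. The methods' test gave 2 import genes at that level. The median log2 difference was 0.24 in the import genes and -0.10 over all named genes. Higher in Ctrl 25 were 23 of the 33 import genes and 2106 of the 5449 named genes. Without Ctrl 5 replicate 3, the control array of 5 generations that resembled Ctrl 25, 16 were called. The share of named probe sets called in that setting was not counted, so the 16 cannot be set against the 0.200%. The interaction of LSMMG with generation called 0 import genes and 0.255% of named probe sets. Its unadjusted p in limma was under 0.05 for 7 of the 33 import genes and for 1052 of the 5449 named genes. Without Ctrl 5 replicate 3 the interaction called 11, again with no share of named probe sets counted.

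LSMMG arrays were also compared with control arrays of the same generation, so that the comparisons at 5 and 25 generations shared no array. In SMG 5 against Ctrl 5, where 50.7% of named probe sets passed, 10 import genes fell and 4 rose (TOM22, TOM40, MDM10 and MIA40). The 30.3% that fell was near the 24.3% of named probe sets, and the 12.1% that rose was under the 26.4%. In SMG 25 against Ctrl 25, where 65.7% passed, 20 fell and 4 rose (TOM22, TOM40, MDM10 and MAS2). The 60.6% that fell compares with 25.8% of named probe sets, and the 12.1% that rose with 39.9%.

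The genes lower in both of these comparisons were TOM5, TOM6, TOM7, SAM37, TIM10, TIM12, TIM54, TIM23, TIM50 and MGE1, which were 100% of those lower at 5 generations and 50% of those lower at 25. TOM22, TOM40 and MDM10 rose in both, 75% of the rises at each time. The share of all named genes lower or higher in both was not counted. These overlaps are therefore not read as particular to the import genes. Against Ctrl 5 alone, 6 of the 19 calls made with all controls were lost: TOM71 (adjusted p = 0.14), TIM17 (0.22), TIM44 (0.15), PAM16 (0.097), PAM18 (0.10) and MAS2 (0.11). MIA40 was gained (0.42, adjusted p = 0.028). Against Ctrl 25 alone all 21 calls made with all controls were kept, and TIM8 (-0.32, adjusted p = 0.018), ERV1 (-0.78, adjusted p = 0.042) and MAS1 (-0.44, adjusted p = 0.041) were added.

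Among the motor genes, PAM18 had a log2 fold change of -0.63 (adjusted p = 0.10) in SMG 5 against Ctrl 5 and -1.33 (adjusted p = 0.0021) in SMG 25 against Ctrl 25, and TIM44 of -0.44 (adjusted p = 0.15) and -1.16 (adjusted p = 0.0011). The difference between the times was tested by the interaction, which was -0.70 for PAM18 (adjusted p = 0.42) and -0.72 for TIM44 (adjusted p = 0.30) and did not pass.

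Other genes that work beside the import machinery were followed as lists. Their counts are to be read against the named probe sets that rose (34.2% at 5 generations and 33.0% at 25) or fell (26.8% and 25.4%). After the data were seen, each list was also counted without Ctrl 5 replicates 1 and 2 (45.1% and 45.3% of named genes higher, 31.0% and 29.5% lower) and against controls of the same generation (26.4% and 39.9% of named probe sets higher, 24.3% and 25.8% lower). Ctrl 5 replicates 1 and 2 were the highest controls for ECM10, SSA3 and the median of the respiratory chain genes. Leaving them out by itself tends to widen a rise there. Values and counts without them are therefore no separate support for a rise or a fall.

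Of 5 further motor and TIM23 components, 3 rose at 5 generations and 2 at 25, and the others were not called. SSC1, the Hsp70 that Pam18 and Mge1 act on, was not called (-0.04 at both times, adjusted p = 0.67 and 0.73), and was named after its values were seen. ZIM17, which keeps Ssc1 soluble, rose by 0.28 (adjusted p = 0.043) and 0.42 (adjusted p = 0.0053), and ECM10, a paralog of SSC1, rose by 1.66 (adjusted p = 0.010) and 1.40 (adjusted p = 0.025). The control ratios of ECM10 ran from 0.235 to 0.294 on 4 arrays and were 0.804 and 1.053 on Ctrl 5 replicates 1 and 2, without which its log2 fold changes were 2.26 and 2.0. MGR2, which acts as a gatekeeper at TIM23, rose by 0.41 at 5 generations (adjusted p = 0.022) and had 0.26 at 25 (adjusted p = 0.12), and SSQ1, an Hsp70 of iron-sulfur cluster assembly, was not called. With the 4 control arrays other than Ctrl 5 replicates 1 and 2, 3 of the 5 genes rose at each time. Against controls of the same generation 0 were called by limma at 5 generations (1 at an unadjusted p under 0.05), with adjusted p of 0.25 for ZIM17, 0.13 for MGR2 and 0.058 for ECM10, and 3 rose at 25.

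Of 6 matrix folding genes, 2 rose at each time, a share like that of all named probe sets, and the others were not called. With the 4 other control arrays 3 rose at each time and 1 fell at 25 generations, and against controls of the same generation 3 rose at 5 generations, and 2 rose and 1 fell at 25. HSP78, a disaggregase, rose by 1.31 (adjusted p = 0.0015) and 1.05 (adjusted p = 0.0058), and JAC1, a J protein of iron-sulfur cluster assembly, by 1.03 (adjusted p = 0.0048) and 0.89 (adjusted p = 0.011). MDJ1, the J protein of folding in the matrix, and HSP10, the partner of the Hsp60 chaperonin, were not called (0.42 and -0.07 at 5 generations).

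Of 11 other peptidases and insertases, 5 fell and 1 rose at 5 generations, and 3 fell and 2 rose at 25, the fall at 25 being near the share of named probe sets. Leaving out Ctrl 5 replicates 1 and 2 gave 6 that fell and 2 that rose at 5 generations, and 7 and 3 at 25. Against controls of the same generation 3 fell at 5 generations and 5 at 25. OXA1, which inserts proteins into the inner membrane from the matrix, fell by 0.29 (adjusted p = 0.022) and 0.79 (adjusted p = 3.6e-05). CYM1, a peptidase that degrades cleaved presequences, fell by 0.84 (adjusted p = 0.0078) and 0.72 (adjusted p = 0.018), whereas IMP2, a subunit of the inner membrane peptidase, rose by 1.21 (adjusted p = 0.00012) and 1.20 (adjusted p = 0.00013). OCT1, the octapeptidyl peptidase, fell at 5 generations (-0.57, adjusted p = 0.0055).

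Of 9 genes of outer membrane biogenesis and ERMES, 6 rose at each time, as MDM10 did, with medians over the list of 0.68 and 0.65. The other 3 were not called: MIM2 (0.07 and 0.18, adjusted p = 0.74 and 0.32), POR1 (0.22 and 0.27, adjusted p = 0.13 and 0.069) and GEM1 (-0.07 and -0.05, adjusted p = 0.84 and 0.89). Without Ctrl 5 replicates 1 and 2, 7 rose at each time, and against controls of the same generation 5 rose at 5 generations and 7 at 25. MMM1, the ERMES subunit in the endoplasmic reticulum, rose by 1.33 (adjusted p = 0.00015) and 1.37 (adjusted p = 0.00012), and MDM12, which bridges the membranes, by 0.78 (adjusted p = 9.7e-05) and 0.87 (adjusted p = 4.4e-05). MDM34, named after its values were seen because it completes the 4 core subunits with MDM10, rose by 0.82 (adjusted p = 0.00045) and 0.65 (adjusted p = 0.0022). OM14, an outer membrane receptor for ribosomes, rose by 1.20 and 0.74, and MSP1, an extractor of mislocalized proteins, by 0.68 and 1.05, with adjusted p of 0.0044 or less.

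Of 15 cysteine-rich proteins of the intermembrane space, the kind of precursor that Mia40 takes in, 4 rose at 5 generations and 3 at 25, and the others were not called. Both shares were under that of named probe sets. Without Ctrl 5 replicates 1 and 2, 6 rose and 3 fell at 5 generations and 6 rose and 2 fell at 25. Against controls of the same generation 6 rose at 5 generations, and 4 rose and 3 fell at 25, among these CMC1, a copper chaperone of cytochrome oxidase assembly (-0.92, adjusted p = 0.0012), named after its values were seen. CMC4 rose by 0.95 (adjusted p = 3.2e-05) and 1.15 (adjusted p = 8.1e-06), and MIX14 by 1.21 (adjusted p = 7.5e-05) and 1.03 (adjusted p = 0.00025). SOD1, copper-zinc superoxide dismutase, rose by 0.48 and 0.32, and COX12, a subunit of cytochrome oxidase, by 0.83 (adjusted p = 0.021) at 5 generations.

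Of 34 nuclear genes of the respiratory chain and ATP synthase, 24 rose and 10 were not called at 5 generations (median 0.66), and 8 rose and 1 fell at 25 (median 0.38). The number at each time depended on the control arrays. Without Ctrl 5 replicates 1 and 2, 30 rose at 5 generations (median 0.91), and 29 rose and 1 fell at 25 (median 0.62). Against controls of the same generation 12 rose at 5 generations (median 0.51) and 18 rose and 1 fell at 25 (median 0.58), the reverse order of the counts with all controls. ATP15, the epsilon subunit of ATP synthase, rose by 0.85 (adjusted p = 0.00025) and 0.65 (adjusted p = 0.0017), and SDH3, a subunit of succinate dehydrogenase that is also found with Tim18 in the TIM22 complex, by 0.88 (adjusted p = 0.0010) and 0.71 (adjusted p = 0.0040). RIP1, the iron-sulfur protein of complex III, rose by 0.93 at 5 generations (adjusted p = 0.0013), and CYC1, cytochrome c, was the gene that fell at 25 (-0.60, adjusted p = 0.00056).

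Of 66 mitochondrial ribosomal protein genes, 17 rose and 15 fell at 5 generations, and 13 rose and 23 fell at 25, with medians of 0.03 and -0.12. At 5 generations both shares were near or under those of named probe sets. When Ctrl 5 replicates 1 and 2 were left out, 16 rose and 26 fell at 5 generations and 16 rose and 32 fell at 25, and against controls of the same generation 17 rose and 7 fell, and 13 rose and 25 fell. MRPL33 (0.89 and 0.50), RSM10 (0.71 and 0.61) and MRPS18 (0.51 and 0.57) rose at both times, and MRPL44 (-0.73 and -0.78) fell.

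Of 11 cytosolic chaperones that deliver precursors, 4 fell and 1 rose at 5 generations, and 1 fell and 3 rose at 25. When Ctrl 5 replicates 1 and 2 were left out, 4 fell and 4 rose at 5 generations, and 2 fell and 5 rose at 25. Against controls of the same generation 1 fell and 1 rose at 5 generations, where SSA2 (adjusted p = 0.083), DJP1 (0.089), XDJ1 (0.16) and SSA3 (0.087) were no longer called, and 2 fell and 4 rose at 25. YDJ1, an Hsp40 that brings precursors to TOM, fell by 0.43 (adjusted p = 0.0020) and 0.53 (adjusted p = 0.00049). SSA3, an Hsp70 induced by stress, rose by 1.86 (adjusted p = 0.014) and 1.91 (adjusted p = 0.013), and its control ratios were 0.975 and 0.721 on Ctrl 5 replicates 1 and 2 and ran from 0.148 to 0.233 on the other 4. Without these 2 arrays its log2 fold changes were 2.57 and 2.62. SSA2, a constitutive Hsp70, fell at 5 generations (-0.23, adjusted p = 0.017), as did XDJ1, an Hsp40 (-0.33, adjusted p = 0.039).

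**Figure D4:**
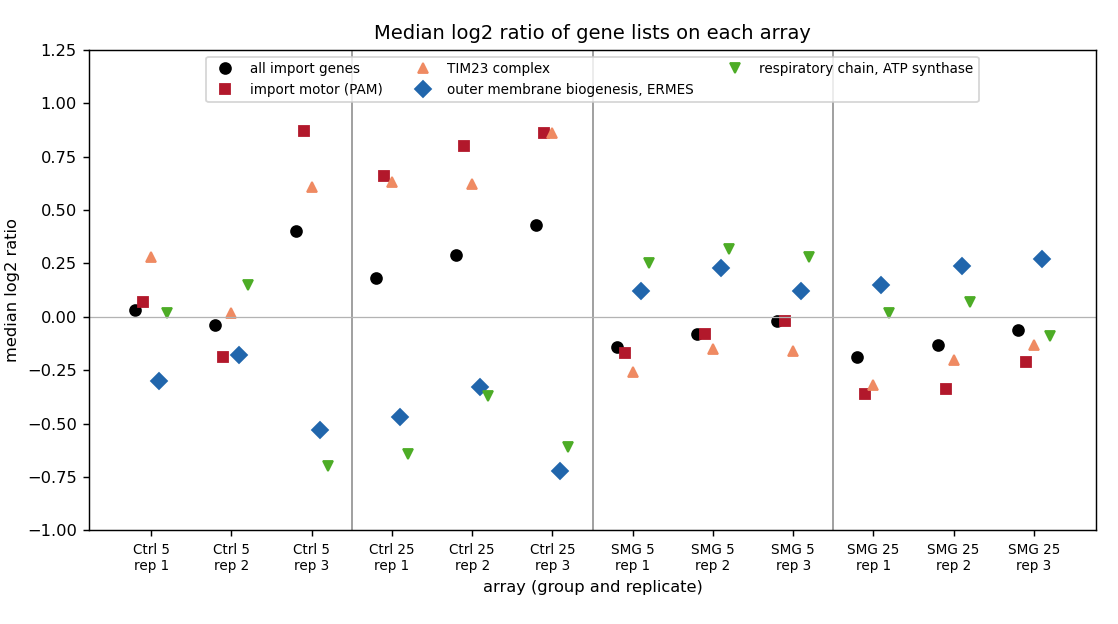
Median log2 ratio (y axis) on each of the 12 arrays (x axis) of all 33 import genes, the PAM and TIM23 groups among them, and the lists of outer membrane biogenesis with ERMES and of the respiratory chain with ATP synthase. On the 4 control arrays other than Ctrl 5 replicates 1 and 2, the PAM median lay between 0.66 and 0.87 and the respiratory chain median between -0.70 and -0.37, while on the LSMMG arrays the PAM median lay between -0.36 and -0.02 and the respiratory chain median between -0.09 and 0.32.

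The same 2 control arrays that were low for the motor genes were high for the respiratory chain. On Ctrl 5 replicates 1 and 2 the median log2 ratio of the PAM genes was 0.07 and -0.19 and that of the respiratory chain genes 0.02 and 0.15, and on the other 4 control arrays the ranges were 0.66 to 0.87 and -0.70 to -0.37. For the ERMES list these arrays, at -0.30 and -0.18, lay closer to the others, which ran from -0.72 to -0.33. What sets these 2 arrays apart was not tested.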

How the data were processed

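RMA normalization of the CEL files and work in GeneSpring were the steps of the authors before deposit. What was deposited is a linear ratio per probe set and array, with a median of 1 on every array and row medians from 0.9935 to 1.0105. Signals were not used here, so no filter on dim probe sets was possible. Of 10928 probe sets, those annotated to S. pombe (1746), control and reporter probe sets (213) and 1 with several symbols were left out, which kept 8968, including 3470 without a gene name. Of these, 5498 have a single S. cerevisiae gene symbol in the array annotation.

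The log2 of each ratio, without a constant, was fitted with limma 3.58.1 in R 4.3.3 to 3 groups (Ctrl with 6 arrays, SMG 5, SMG 25), and 4 groups gave Ctrl 25 against Ctrl 5, the interaction and the comparisons within a generation. Tests were moderated and two-sided, with Benjamini-Hochberg adjustment over all 8968 probe sets within a comparison and a threshold of 0.05. The methods' test, applied as an alternative, allows unequal variances in a pair of groups. The steps were tested on simulated data. Plots were made in Python 3.11.15 (matplotlib 3.10.9).

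The import genes, the other lists and the alternatives were chosen with earlier results of these data known. Values on every array were given for up to 3 genes of each complex with the largest absolute moderated statistic against Ctrl, and for TOM70 and TOM71. Up to 4 genes of each other list were named by the same statistic. Exceptions are marked as named after their values were seen. Other settings were fold minimums, median centring, quantile normalization, a trended and robust prior, array weights, other sets of probe sets, a constant of 0.1, other control arrays, a replicate block and leaving out each array. Promoter and protein sequences were not used here.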

Additional observations from a re-analysis of the deposited data

Results flagged for a closer look

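TOM70, the receptor for carrier precursors, lay on opposite sides of the controls at the 2 times when each LSMMG group was set against controls of its own generation. All SMG 5 arrays (0.884 to 0.964) were below all Ctrl 5 arrays (0.992 to 1.063), and all SMG 25 arrays (1.020 to 1.073) were above all Ctrl 25 arrays (0.869 to 1.001). Neither comparison passed in limma (log2 fold changes -0.14, adjusted p = 0.26, and 0.17, adjusted p = 0.12). The share of named probe sets so placed was not counted. The interaction of LSMMG with generation was 0.31 on the log2 scale, with an adjusted p of 0.26 in limma, so the difference between the times did not pass the test.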

How the results depend on the processing

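The number of calls depended mainly on the fold minimum and on the arrays used. With a minimum of 1.5-fold, 10 import genes were called at 5 generations and 14 at 25 (42.4% and 40.0% of named genes). With 2-fold, 4 were called at each time (22.3% and 20.4% of named genes): SAM37, TIM12, TIM23 and TIM50 at 5 generations and MDM10, TIM12, TIM23 and PAM18 at 25. With controls of the same generation the median change at 5 generations was -0.18. With array weights 25 and 24 were called against Ctrl, where 77.2% and 74.5% of named genes passed. Array weights also called 8 in SMG 25 against SMG 5, 12 in Ctrl 25 against Ctrl 5 and 9 in the interaction. For these last comparisons, the share of named genes in each other setting was not counted. In SMG 25 against SMG 5, quantile normalization called 5 (TOM20, TOM71, TOM6, TOM7 and TIM18), the trended and robust prior 1 (TOM71), and named probe sets only, or 4 control arrays, 2 (TOM71 and TIM18). Quantile normalization called 1 in the interaction (TIM18). Leaving out each array gave 12 to 21 calls at 5 generations (12 without SMG 5 replicate 2), 19 to 22 at 25, 0 to 2 in SMG 25 against SMG 5, 0 to 16 in Ctrl 25 against Ctrl 5 and 0 to 11 in the interaction (16 and 11 without Ctrl 5 replicate 3), and medians of -0.40 to -0.29 and -0.53 to -0.37. At 5 generations 51.9% of named genes passed without SMG 5 replicate 2 and 69.6% without Ctrl 5 replicate 2, the settings with 12 and 21 calls. At 25 generations 48.0% passed without SMG 25 replicate 1 and 48.4% without SMG 25 replicate 2, the settings with 19 calls. In the settings with 22 calls, 61.6% passed without Ctrl 5 replicate 1, 67.4% without Ctrl 5 replicate 2 and 57.0% without Ctrl 25 replicate 2. The cause of these shifts was not tested.

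The methods' test did not call TOM71 (adjusted p = 0.064) and TIM17 (0.056) at 5 generations or MAS2 (0.17) at 25. Signs turned only for genes that were not called: MIA40 at 5 generations (-0.02 with 4 control arrays) and at 25 (-0.04 with array weights, -0.12 with 4 control arrays, -0.18 with controls of the same generation), and SAM35 at 5 generations (0.01 with controls of the same generation) and at 25 (-0.02 with array weights, -0.04 with 4 control arrays or the same generation, -0.01 to 0.04 when single arrays were left out, -0.01 being without Ctrl 5 replicate 1). Over all single-gene values in the other settings, 1517 kept their direction and side of the threshold, 89 lost a call, 35 gained 1 and 9 turned.

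With the replicate number as a block, 19 and 21 import genes were called against Ctrl and 0 in the other comparisons, as without it. With the block 59.2% and 57.1% of named genes passed against Ctrl. The numbers did not pair the arrays: 5 of 18 same-numbered pairs correlated above 0.1 (from -0.278 to 0.49), and 4 of 12 arrays correlated best with their own number. No import gene has a second probe set, so that alternative was not run, nor was the interaction under the methods' test. Signal over background is unknown in ratios, which limits what can be said of dim genes.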
